A study of Mus musculus with 4 samples.

Results

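The difference between the butyrate response of WT and of LNCKO bone marrow-derived macrophages was examined gene by gene. For each gene the log2 ratio of FPKM + 1 between butyrate and control was taken in each genotype, and the LNCKO change was subtracted from the WT change. FPKM, fragments per kilobase of gene per 1000000 fragments, is the unit of the deposited values. Genes were used if their FPKM averaged 1 or more across the 4 libraries, which were 6809 of 16375 listed genes. Nfat5, with a mean FPKM of 0.999, lay just outside this limit and Nipsnap2, with 1.0004, just inside, and their differences were -0.13 and -0.06. The genes were sorted by direction into those past 0.5 on the log2 scale (1.41-fold) in a single genotype with a change under 0.25 in the other, those past 0.5 the same way in both genotypes, and those that moved by at least 0.25 in opposite directions.

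WT macrophages came from C57BL/6 mice. LNCKO macrophages came from mice in which the long noncoding RNA gene lncLy6c had been removed with CRISPR-Cas9 in zygotes on the C57BL/6J background. Bone marrow cells of both genotypes were grown with macrophage colony-stimulating factor (M-CSF), and each genotype was cultured for 24 h with 500 µM butyrate or without it. Each of the 4 groups was 1 library, and the number, sex and age of the mice behind each library are not given. The study's methods give wild-type mice of 4 to 6 weeks and of either sex for its experiments in general. With 1 library per group there is no replicate error and no test was run, so each difference below compares libraries, and a gene is called "past" a value only by its size.

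Butyrate is a short-chain fatty acid that gut bacteria make from fiber. It inhibits histone deacetylases, enzymes that take acetyl groups off histones, it can bind the receptors encoded by Ffar2, Ffar3 and Hcar2, and in intestinal macrophages it is known to dampen inflammatory cytokine output and to raise antimicrobial proteins. lncLy6c is a long noncoding RNA that the study links to the monocyte marker Ly6C and to the transcription factor RUNX3, and the comparison asks which parts of the butyrate response differ when it is missing.

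Library totals ranged from 53363944 to 65521713 fragments, and an FPKM of this file rests on the whole genomic span of a gene, introns included, so that values are compared between libraries and not between genes. The 10 macrophage markers had summed FPKM of 909, 1017, 893 and 917 in WT without and with butyrate and in LNCKO without and with butyrate, the order used for every set of 4 values below. Markers of other marrow cells were present as well. Granulocyte markers summed to 2774, 3224, 2416 and 2325, B cell markers to 209, 164, 213 and 216, T and NK cell markers to 14.4, 19.2, 18.1 and 16.9, basophil and mast cell markers to 45.3, 33.8, 70.2 and 69.4, erythroid markers to 5.99, 6.68, 22.6 and 64.6, stromal markers to 13.3, 11.4, 3.97 and 7.87 and dendritic cell markers to 16.9, 14.4, 15.0 and 14.5. The Y-linked gene Ddx3y was at 0.0446, 0.0320, 4.44 and 4.58, so genotype and sex cannot be told apart. The column names of the LNCKO libraries (NC and R3) do not spell their conditions, which were taken from the sample titles.

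The promoters of 5 genes that carry the main patterns are shown, because each pattern below is a change in RNA of genes whose starts are known. Lyz1 and Lyz2 moved in opposite directions between the genotypes, Mmp8 was higher with butyrate in WT alone, Rag1 was lower in WT alone, and Hba-a2 was higher in LNCKO alone. Each sequence is a RefSeq promoter of GRCm38.p6, from 250 bases before to 50 bases after the start, on the strand of the gene. Capitals mark matches on either strand to short motifs known for factors of myeloid cells.
Lyz1 (chr10:117292819-117293118, minus strand): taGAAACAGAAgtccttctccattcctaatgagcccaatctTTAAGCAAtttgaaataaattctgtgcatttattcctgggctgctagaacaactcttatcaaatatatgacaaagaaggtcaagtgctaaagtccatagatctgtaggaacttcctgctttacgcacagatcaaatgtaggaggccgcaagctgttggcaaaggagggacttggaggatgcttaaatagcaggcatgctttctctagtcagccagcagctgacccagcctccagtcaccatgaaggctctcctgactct
Lyz2 (chr10:117282223-117282522, minus strand): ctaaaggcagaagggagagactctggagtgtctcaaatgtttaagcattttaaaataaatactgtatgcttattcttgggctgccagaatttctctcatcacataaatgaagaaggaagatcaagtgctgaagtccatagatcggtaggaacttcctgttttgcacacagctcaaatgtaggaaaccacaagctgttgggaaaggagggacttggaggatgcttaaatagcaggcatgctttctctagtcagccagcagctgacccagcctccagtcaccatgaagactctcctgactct
Mmp8 (chr9:7558179-7558478, plus strand): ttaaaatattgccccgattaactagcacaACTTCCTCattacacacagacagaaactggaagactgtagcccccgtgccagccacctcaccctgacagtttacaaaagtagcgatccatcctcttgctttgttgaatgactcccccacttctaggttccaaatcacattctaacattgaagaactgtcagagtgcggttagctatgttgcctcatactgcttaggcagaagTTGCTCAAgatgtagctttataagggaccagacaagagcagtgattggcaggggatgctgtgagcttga
Rag1 (chr2:101649483-101649782, minus strand): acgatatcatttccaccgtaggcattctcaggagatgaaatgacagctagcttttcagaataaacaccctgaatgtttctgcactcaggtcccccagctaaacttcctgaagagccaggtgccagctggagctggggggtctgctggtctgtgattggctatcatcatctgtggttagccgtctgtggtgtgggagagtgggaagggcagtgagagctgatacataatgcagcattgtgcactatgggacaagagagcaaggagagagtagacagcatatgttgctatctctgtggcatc
Hba-a2 (chr11:32296242-32296541, plus strand): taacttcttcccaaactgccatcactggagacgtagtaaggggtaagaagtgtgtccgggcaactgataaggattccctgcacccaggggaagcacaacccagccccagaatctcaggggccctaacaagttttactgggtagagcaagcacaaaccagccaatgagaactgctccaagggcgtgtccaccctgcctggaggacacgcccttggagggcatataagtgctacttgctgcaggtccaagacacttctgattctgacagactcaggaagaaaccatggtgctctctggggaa
The motifs searched were GGGCGG for Sp factors, TGACTCA for AP-1, GAGGAAGT for PU.1, GGGANTTTC for NF-kB, TTGCNNAA for C/EBP and GAAANNGAA for interferon regulatory factors, where N is any base and no match overlapped another in the promoters shown. Lyz1 held a C/EBP and an interferon regulatory factor match where Lyz2 held none, although the promoters were identical at 87.6% of aligned bases. Mmp8 held a PU.1 and a C/EBP match, and neither Rag1 nor Hba-a2 held any. A RefSeq promoter was found for 5463 of the 6809 genes. The C/EBP letters were found in 7 of 33 promoters of genes past 0.5 upward in WT alone (21.2%), against 9.01% of promoters of the genes used and 10.7% of all 27025 promoters. For PU.1 these shares were 12.1%, 4.01% and 3.29%, for interferon regulatory factors 15.2%, 8.26% and 8.56%, for AP-1 9.09%, 3.64% and 5.20%, for NF-kB 0%, 1.135% and 1.132%, and for Sp 39.4%, 64.9% and 35.6%. In the other classes, of 23 promoters of genes past 0.5 downward in WT alone 2 held the C/EBP letters, 14 the Sp, 1 the interferon regulatory factor, 1 the AP-1 and 0 the PU.1 or NF-kB letters. Of 12 promoters of the LNCKO classes these were 0, 5, 3, 1 and 0, and of 15 of the opposite class 1, 7, 1 and 0, with 1 for PU.1 and 0 for NF-kB. Of 6 promoters of genes past 0.5 in both genotypes 2 held the Sp, 1 the PU.1 and 1 the interferon regulatory factor letters and none the others. These counts describe letters in a window of 300 bases and not binding.

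The butyrate response was wider in WT than in LNCKO. Across the 6809 genes the SD of the log2 change was 0.19 in WT and 0.12 in LNCKO, and 121 genes were past 0.5 in WT (76 higher and 45 lower) against 38 in LNCKO (25 higher and 13 lower). Of the genes past 0.5 upward in WT, 53 were also above 0 in LNCKO, and of those past 0.5 downward in WT, 31 were also below 0. Of all genes used, 36.9% were above 0 in WT and 42.2% in LNCKO. The median difference, WT minus LNCKO, was -0.03, and 58.6% of genes lay below 0. The difference was at least 0.5 for 79 genes (1.16% of those used) and at most -0.5 for 60 genes (0.881%). A 95% counting interval on the fragments left out 0 for 137 of these 139 genes, and the other 2 had a library with no fragment. The 139 genes were picked by the size of the same difference in the same libraries, so the interval is no separate support for them. It covers counting error only, not variation between cultures or mice.

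**Figure D1:**
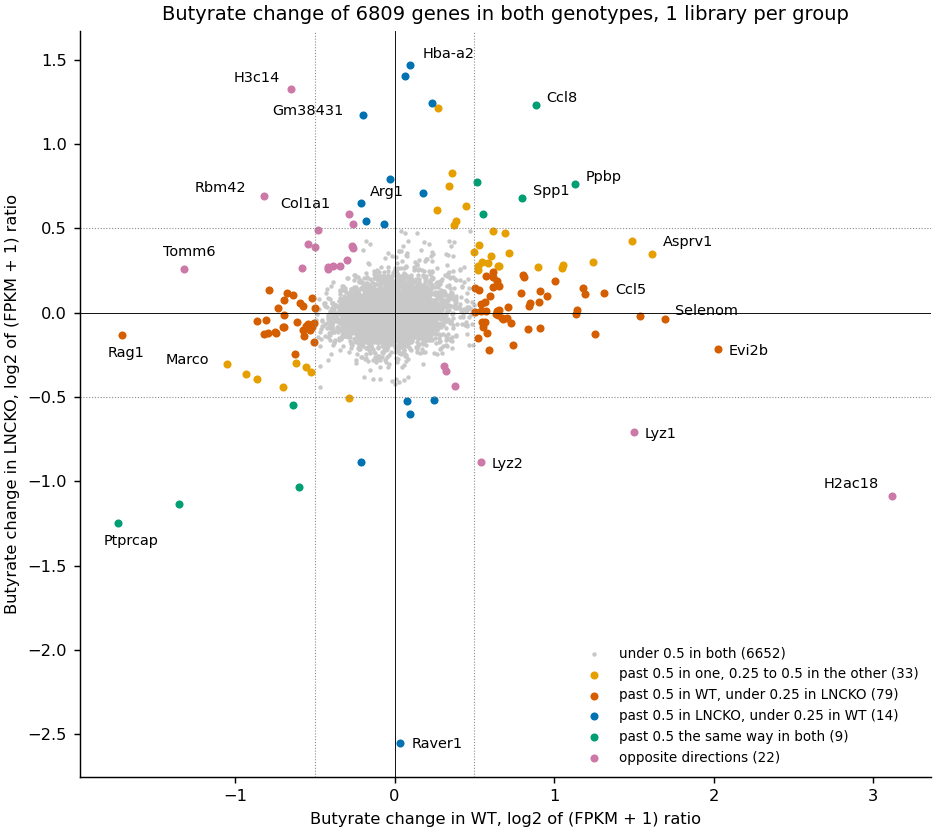
Each point is 1 of 6809 genes, with its butyrate change in WT on the x axis and in LNCKO on the y axis, both as log2 ratios of FPKM + 1 from 1 library per group. Colors give the class of the gene and the dotted lines mark 0.5, and most points past a line lie along the WT axis near an LNCKO change of 0.

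Genes past 0.5 in WT with less than 0.25 in LNCKO numbered 50 upward (0.734% of genes used) and 29 downward (0.426%). The remaining 6652 genes were in no class. Another 25 genes (0.367%) were past 0.5 upward in 1 genotype and between 0.25 and 0.5 the same way in the other, and 8 genes (0.117%) were so downward. In LNCKO butyrate, 48 of the 50 genes of the upward WT class were below their WT butyrate level, the exceptions being Gm2174 and H2ac11, and all 29 genes of the downward class were above it. For 7 upward genes (Vcam1, Nkg7, Folr2, Gm20605, Gm2174, Ccl7 and H2ac11) the LNCKO control already lay nearer to WT butyrate than to WT control on the log2 scale.

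Granule proteins of neutrophils and their precursors were prominent among the genes that were higher with butyrate in WT. Mmp8, the neutrophil collagenase (ENSMUSG00000005800, chr9:7558456-7568485 of GRCm38), had FPKM of 60.9 without and 135 with butyrate in WT and 60.8 without and 60.6 with butyrate in LNCKO, a change of 1.14 in WT and 0.00 in LNCKO. The WT butyrate library stood alone and the other 3 were nearly equal. Elane, neutrophil elastase, was at 174, 278, 190.3 and 186 (0.68 in WT, -0.04 in LNCKO), and Retnlg, a resistin-like protein of neutrophils, at 95.8, 141, 82.7 and 77.9 (0.55 and -0.09). Chil1, a chitinase-like protein, was at 5.95, 10.5, 4.66 and 4.42 (0.73 and -0.06). Asprv1, an aspartic protease expressed in neutrophils, was at 33.3, 104, 23.9 and 30.7, past 0.5 in WT (1.61) and at 0.35 in LNCKO, and Ly6g, the surface marker of mouse neutrophils, was at 4.04, 9.43, 2.99 and 3.79 (1.05 and 0.26). All 6 genes had their highest value in WT butyrate.

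Over the list of 14 granulocyte granule proteins, all of which passed the filter, the median change was 0.24 in WT and -0.05 in LNCKO, and 7 of 14 were at least 0.25 higher in WT against 0 in LNCKO. Among all genes used, 4.93% were at least 0.25 higher in WT and 1.75% in LNCKO, with median changes of -0.04 and -0.01. The list did not move as 1 block. S100a9, a subunit of the calcium-binding protein calprotectin, was at 615, 862, 493 and 490.1 (0.49 in WT), and Lcn2, the siderophore-binding lipocalin, at 110.0, 148, 92.3 and 88.0 (0.42). In contrast Camp, the cathelicidin precursor, was at 50.3, 36.7, 44.2 and 45.9 (-0.44), Ngp at 407, 319, 359.9 and 332 (-0.35) and Chil3 at 46.7, 35.3, 40.5 and 38.6 (-0.39), which are the list's members with a lower value under butyrate by more than 0.25 in WT. The summed granulocyte markers differed by 0.22 with butyrate in WT and by -0.06 in LNCKO, and their part in these results was not tested. In bulk RNA, more cells of a type and more RNA per cell cannot be told apart.

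**Figure D2:**
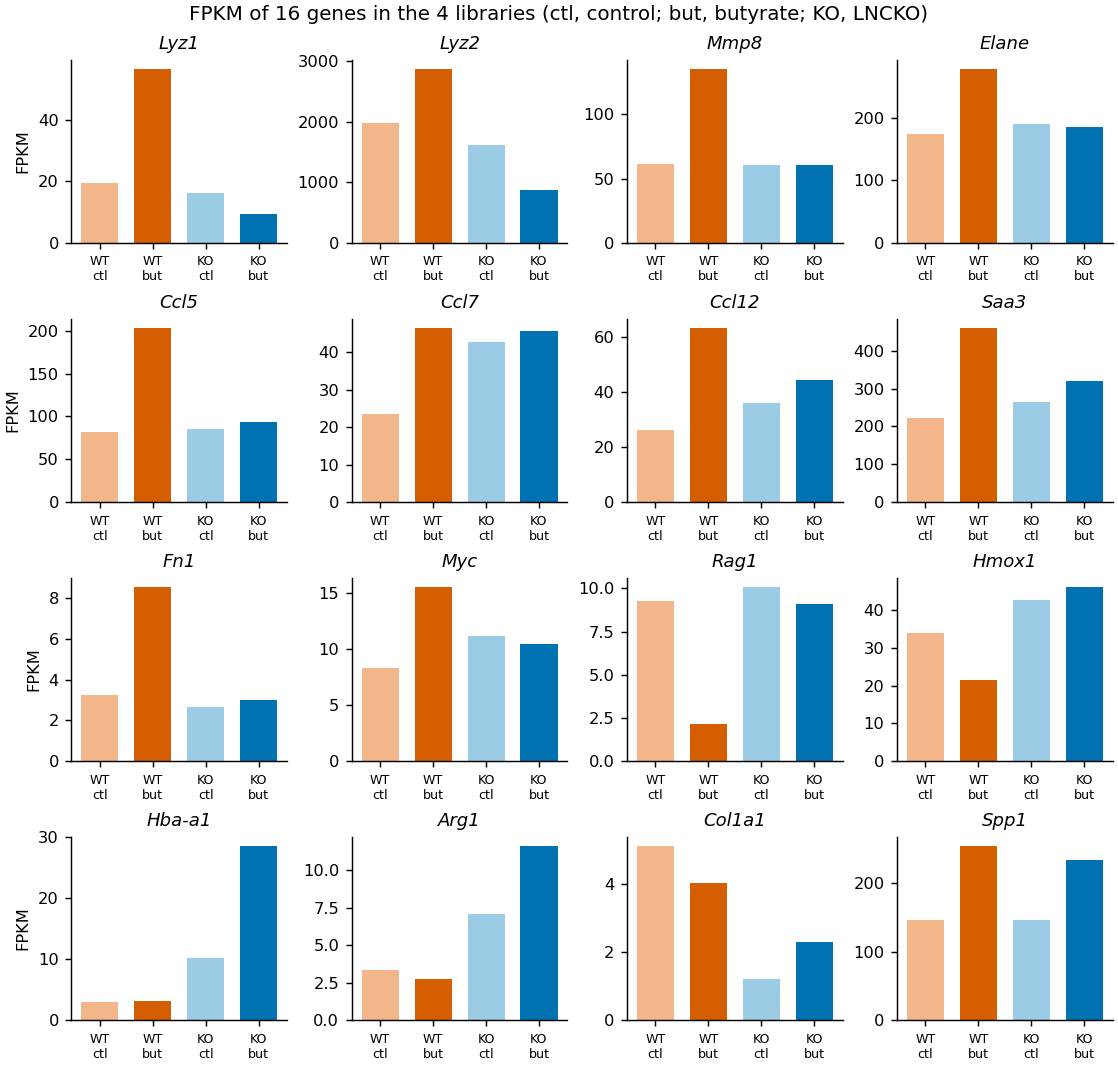
Bars give the FPKM of 16 genes in the 4 libraries, each panel on its own axis from 0, with 1 library per bar and no error. Ccl5, Mmp8 and Fn1 stand out in WT butyrate, Rag1 is low there, Hba-a1 and Arg1 are highest in LNCKO butyrate, and Spp1 is higher with butyrate in both genotypes.

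CC chemokines, which attract leukocytes, differed from member to member. Ccl5 (ENSMUSG00000035042, chr11:83525778-83530518 of GRCm38), a chemokine that attracts T cells and monocytes, was at 81.2 without and 203 with butyrate in WT and 85.4 without and 92.9 with butyrate in LNCKO (1.31 in WT and 0.12 in LNCKO). Ccl12, a ligand of Ccr2, was at 26.2, 63.5, 36.0 and 44.6 (1.25 and 0.30). For both genes the WT butyrate value was the highest of the 4. Ccl7, another Ccr2 ligand, followed a different course, with 23.5, 46.6, 42.7 and 45.8 (0.96 and 0.10): both LNCKO libraries and WT butyrate were alike and WT control was the low library. Ccl3, an inflammatory chemokine, had the opposite sign, at 42.9, 30.7, 49.0 and 52.0 (-0.47 in WT and 0.08 in LNCKO). Of 10 passing CC chemokines, 6 were at least 0.25 higher in WT and 2 in LNCKO, against 4.93% and 1.75% of all genes used. All 10 were above 0 in LNCKO and 9 in WT, against 42.2% and 36.9% of all genes used. The median difference was 0.12, from -0.55 for Ccl3 to 1.19 for Ccl5. Saa3, an acute-phase protein that macrophages make, was at 221, 461, 264 and 321 (1.06 and 0.28), again with WT butyrate highest.

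The upward WT class and its neighbors with a smaller change in LNCKO held single genes of adhesion, coagulation and matrix, picked here by their values and not as a list. Fn1, fibronectin, was at 3.22, 8.56, 2.63 and 3.01 (1.18 in WT and 0.14 in LNCKO), and Thbs1, thrombospondin 1, at 238, 428, 284 and 293 (0.84 and 0.04). F7, coagulation factor VII, was at 1.06, 4.78, 1.42 and 2.25 (1.49 and 0.42). F13a1, the A chain of coagulation factor XIII, was at 4.53, 7.36, 4.26 and 4.65 (0.60 and 0.10). In all 4 genes the LNCKO butyrate value was less than the WT butyrate value. The proteoglycan gene Vcan was at 1.77, 3.34, 1.53 and 1.51 (0.65 and -0.02) and Ecm1 at 27.6, 42.9, 25.02 and 29.1 (0.62 and 0.21). Mmp27, a matrix metalloproteinase, was at 2.39, 5.36, 3.29 and 3.49 (0.91 and 0.07). Of the 9 metalloproteinases and tissue inhibitors that passed, Mmp8 and Mmp27 had a difference of at least 0.5, Timp1, an inhibitor of these proteases, had -0.60, and the others lay between -0.18 for Mmp14 and 0.31 for Mmp9, with a list median of 0.02. The 3 passing stromal and matrix genes, Col1a1, Col1a2 and Bgn, had differences below 0 (-0.87, -0.79 and -0.72).

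Further genes were chosen by their values. Myc, a transcription factor that drives cell growth, was at 8.28, 15.6, 11.2 and 10.4 (0.84 in WT and -0.09 in LNCKO), and Srm, the spermidine synthase, which is a known MYC target, at 6.84, 12.1, 7.596 and 6.54 (0.74 and -0.19). Ranbp1, a cofactor of nuclear transport, and Nolc1, a nucleolar phosphoprotein, had 0.35 and 0.45 in WT and -0.16 and -0.07 in LNCKO. Selenom, an endoplasmic reticulum selenoprotein (ENSMUSG00000075702, chr11:3514684-3517351 of GRCm38), was at 3.89, 14.8, 5.26 and 5.11 (1.69 and -0.03), whereas the other 14 selenoproteins that passed had differences from -0.46 for Gpx3 to 0.43 for Selenon. Tmem119, best known as a marker of microglia, was at 1.22, 4.30, 1.76 and 1.54 (1.25 and -0.12), and Folr2, a marker of resident macrophages, at 1.83, 3.64, 2.84 and 2.94 (0.71 and 0.03). Klk1b11, a kallikrein, was at 0.922, 4.57, 0.548 and 0.530 (1.54 and -0.02), and Inpp5j, an inositol phosphatase, at 2.03, 5.93, 2.30 and 2.56 (1.19 and 0.11). Runx3 was at 2.85, 5.73, 0.849 and 1.16 (0.81 and 0.22). It was the only gene with a difference past 0.5 whose values did not convert to whole fragments on its span. F13a1 and Kctd6, with differences of 0.49 and -0.43, did not convert either. Of all values, 98.5 to 98.6% converted, and how the others were made is not known here.

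The upward WT class also held single genes of other immune cells and of the interferon response, beside genes of unrelated function such as Grina (0.65 and 0.16), Tmsb10 (0.53 and 0.14) and Bex3 (0.85 and 0.06). Ear2 and Rnase2a, ribonucleases of eosinophils, were at 5.33, 8.46, 5.55 and 5.02 (0.58 and -0.12) and 0.896, 1.81, 0.859 and 0.789 (0.57 and -0.06). Ifi27 and Ifitm6, interferon-induced proteins, were at 3.14, 5.75, 3.34 and 3.25 (0.71 and -0.03) and 84.0, 148, 75.5 and 87.6 (0.81 and 0.21). In all 4 genes WT butyrate was the highest library. Il12rb1, a receptor chain for interleukin 12, was at 1.92, 3.57, 2.45 and 2.48 (0.64 and 0.01), and Vcam1, a vascular adhesion molecule that macrophages also express, at 2.04, 3.45, 2.99 and 2.84 (0.55 and -0.05). Nkg7 and Klrb1f, genes of NK cells, were at 10.5, 15.6, 13.3 and 11.9 (0.53 and -0.15) and 1.06, 2.24, 1.03 and 1.05 (0.66 and 0.02). The summed T and NK cell markers differed by 0.39 in WT and -0.09 in LNCKO, with 4 of 8 markers higher in each. Nkg7 is 1 of these 8 markers and gave most of their sum (14.4, 19.2, 18.1 and 16.9). Over the 5 passing genes of the T and NK cell list the median changes were -0.21 in WT and -0.15 in LNCKO. The part of these cells in these values was not tested. The lectin receptors Clec4a1 and Clec4a2 had 0.54 and 0.45 in WT and 0.05 and -0.08 in LNCKO, whereas Clec4d, a related receptor, had -0.31 and 0.06.

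Complement and MHC genes lay on the same side with smaller shifts, unlike other immune lists given below, such as p200 and NF-kB genes. The complement list had a median change of 0.24 in WT and -0.02 in LNCKO, with 5 of 10 passing genes at least 0.25 higher in WT and 0 in LNCKO, against 4.93% and 1.75% of all genes used. C3, the central component, was at 26.9, 37.6, 26.1 and 22.7 (0.47 and -0.19), and C1qb, a subunit of C1q, at 119, 149, 115 and 114 (0.32 and -0.01), while Cfp, properdin, was at 50.9, 38.2, 58.2 and 54.6 (-0.41 and -0.09). Genes of MHC class I presentation had medians of 0.20 and 0.03, and 2 of 13, Tapbp and B2m, had a difference below 0, against 58.6% of all genes used. For MHC class II presentation the medians were 0.19 and 0.04, with H2-Aa at 51.9, 62.9, 49.7 and 48.7 (0.27 and -0.03). No gene of either MHC list was past 0.5 in the difference.

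The Ly6 family, which includes the monocyte marker that gives lncLy6c its name, had medians of 0.33 in WT and 0.11 in LNCKO over 7 passing genes. Ly6c2 was at 728, 916, 752 and 807 (0.33 and 0.10), Ly6c1 at 49.3, 61.7, 47.7 and 51.8 (0.32 and 0.11) and Ly6a, also called Sca-1, at 533, 802, 517 and 635 (0.59 and 0.30). Only Ly6g had a difference past 0.5 in this family. Macrophage identity genes had medians of 0.18 and 0.04, with Csf1r, the M-CSF receptor, at 46.5, 46.5, 40.8 and 38.3 (0.00 and -0.09).

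**Figure D3:**
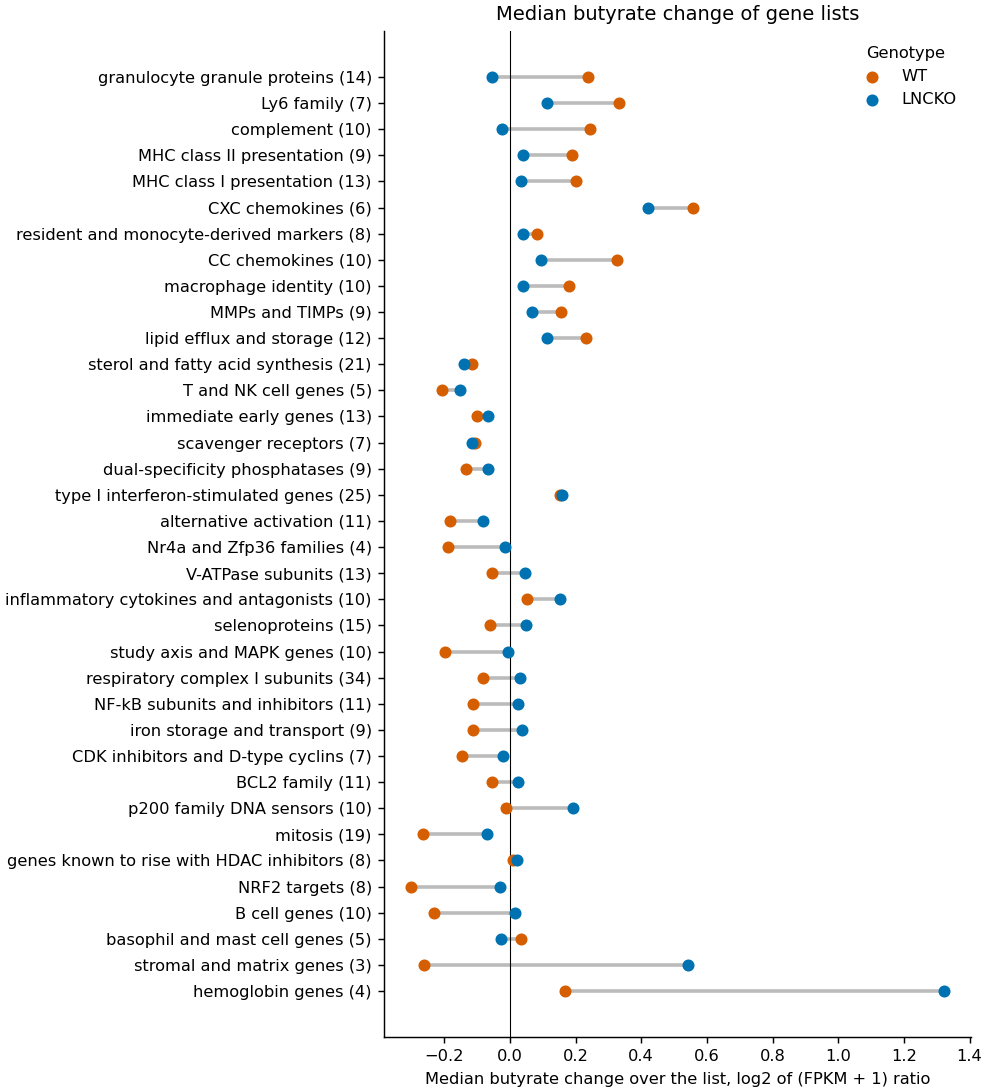
Points give the median butyrate change (log2 ratio of FPKM + 1) over each gene list in WT and in LNCKO, with the number of passing genes in parentheses, and the lists are ordered by the median of WT minus LNCKO. Lists of at least 3 genes are shown where the median was at least 0.1 in size in either genotype or in the difference. WT points lie right of LNCKO points for granule, Ly6, complement and MHC genes and left of them for mitosis, NRF2 and B cell genes.

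Among genes that were lower with butyrate in WT alone, those of B cell development and of cell division recurred. Rag1 (ENSMUSG00000061311, chr2:101638282-101649501 of GRCm38), a recombinase subunit of lymphocyte precursors, was at 9.27 without and 2.15 with butyrate in WT and 10.1 without and 9.11 with butyrate in LNCKO (-1.70 in WT and -0.13 in LNCKO), from 5864, 1429, 6041 and 6695 fragments. Vpreb3, a pre-B cell receptor chain, was at 5.31, 2.90, 5.24 and 4.88 (-0.69 and -0.08), and Fcrla, an Fc receptor-like protein of B cells, at 6.30, 3.92, 7.09 and 7.32 (-0.57 and 0.04). Sox4, a transcription factor needed in early B cell development, was at 12.4, 7.0004, 14.5 and 13.2 (-0.74 and -0.12). WT butyrate was the low library for all 4. Over the B cell list 10 of 17 genes passed the filter, and all 10 had a difference below 0, against 58.6% of all genes used. Of them 4 were at least 0.25 lower in WT and 0 in LNCKO, against 6.27% and 1.01% of all genes used. Cd79a and Cd79b, the signaling chains of the B cell receptor, had WT changes of -0.40 and -0.39 and LNCKO changes of 0.00 and 0.03. The 7 summed B cell markers differed by -0.35 in WT and 0.02 in LNCKO, and all 7 were lower in WT. Mcpt8, a basophil protease, was at 5.85, 2.96, 10.1 and 9.23 (-0.79 and -0.12), and the basophil and mast cell markers as a sum, with Mcpt8 included, differed by -0.41 and -0.01. The genes did not move alike. Over the 5 passing genes of the basophil and mast cell list the medians were 0.03 in WT and -0.03 in LNCKO, and Ms4a2, another of the markers, had 0.34 and 0.75. The part of these cells in the results was not tested.

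In the mitosis list 12 of 19 passing genes were at least 0.25 lower in WT and 0 in LNCKO, against 6.27% and 1.01% of all genes used, with medians of -0.26 and -0.07, and the difference was below 0 for 18, against 58.6% of all genes, the exception being Ube2c at 0.01. Cdc20, the activator of the anaphase-promoting complex, was at 10.7, 7.02, 11.4 and 10.8 (-0.54 and -0.07), and Ccnb2, a mitotic cyclin, at 3.87, 2.37, 3.69 and 3.37 (-0.53 and -0.10). Plk1, a mitotic kinase, was at 5.99, 4.46, 6.18 and 6.14 (-0.36 and -0.01). DNA replication genes did not show this split, with medians of 0.00 and -0.06 and 1 of 16 genes at least 0.25 lower in WT. Of 7 passing inhibitors of cyclin-dependent kinases and D-type cyclins 3 were at least 0.25 lower in WT and 0 in LNCKO, beside the same shares of all genes, with Cdkn2c at 3.58, 1.82, 3.55 and 3.29 (-0.70 and -0.08), Cdkn1a at 19.6, 14.7, 22.7 and 21.7 (-0.39 and -0.06) and Cdkn1b at 33.9, 26.7, 35.0 and 35.2 (-0.33 and 0.01). Cdkn1a is a gene that histone deacetylase inhibitors are known to raise in many cell types. Among 8 passing genes of that kind the medians were 0.01 and 0.02, but the median of the gene-wise differences was -0.22. In that list 5 had a difference below 0, near the 58.6% of all genes used. In WT 2 (Cdkn1a and Klf4) were at least 0.25 lower, against 6.27% of all genes used. In LNCKO 2 (Gadd45a and Gadd45b) were at least 0.25 higher, against 1.75%. Gadd45a, a stress sensor, was at 7.73, 7.91, 8.06 and 10.7 (0.03 and 0.37).

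Targets of NRF2, the transcription factor of the antioxidant response, were lower with butyrate in WT. All 8 passing genes of the list had a difference below 0, against 58.6% of all genes used. Of them 5 were at least 0.25 lower in WT and 0 in LNCKO, against 6.27% and 1.01% of all genes used. Hmox1, heme oxygenase 1, was at 33.9, 21.5, 42.8 and 46.2 (-0.64 and 0.11), and Srxn1, sulfiredoxin, at 6.30, 4.53, 6.63 and 5.98 (-0.40 and -0.13). Ftl1, the ferritin light chain, was at 1443, 1193, 1382 and 1526 (-0.27 and 0.14), while Fth1, the heavy chain, was at 1209, 1385, 1264 and 1378 (0.20 and 0.12). Lipa, lysosomal acid lipase, was at 12.6, 7.90, 14.4 and 13.9 (-0.61 and -0.05), with Gusb, a lysosomal glycosidase, at -0.42 in WT and -0.09 in LNCKO. Btg2, an antiproliferative factor, was at 68.6, 48.1, 81.3 and 72.04 (-0.50 and -0.17), and Marco, a scavenger receptor for bacteria, at 2.02, 0.461, 2.47 and 1.81 (-1.05 and -0.30). Alox15, a lipoxygenase of eosinophils and resident macrophages, was at 2.39, 1.20, 2.26 and 1.76 (-0.62 and -0.24), and P2ry1, a receptor for ADP, at 1.90, 0.920, 1.71 and 1.83 (-0.59 and 0.06). Other growth-restraining genes of the downward WT class were Tob1 (-0.58 and -0.10) and Ccng2, an atypical cyclin (-0.50 and -0.06). WT butyrate was the lowest of the 4 libraries for Hmox1, Lipa, Btg2, Marco, Alox15 and P2ry1.

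**Figure D4:**
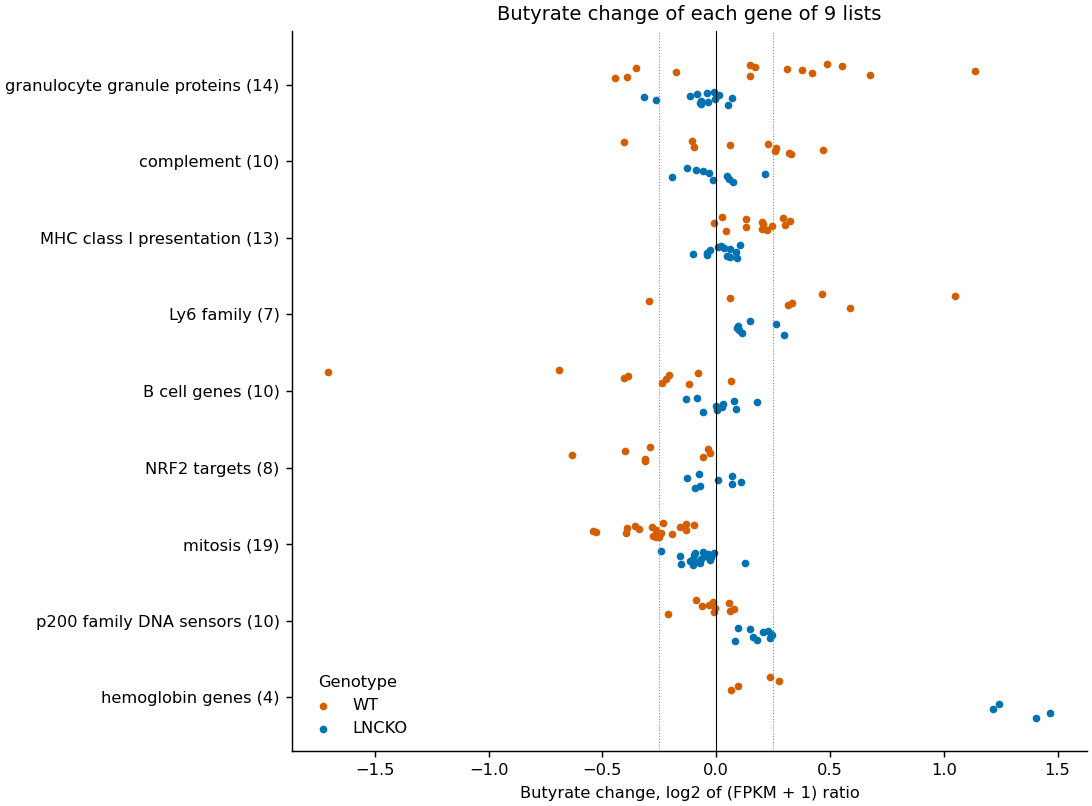
Each point is the butyrate change (log2 ratio of FPKM + 1) of 1 gene of 9 lists, with WT above LNCKO in each row, the number of passing genes in parentheses and dotted lines at 0.25 in either direction. LNCKO points stay between the lines for B cell, NRF2, mitosis and p200 genes, whereas the 4 hemoglobin genes lie past 1 in LNCKO alone.

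Fewer genes were past 0.5 in LNCKO with less than 0.25 in WT, 9 upward (0.132% of genes used) and 5 downward (0.0734%). The upward group was led by hemoglobin genes. Hba-a2 (ENSMUSG00000069917, chr11:32296489-32297298 of GRCm38) was at 2.25 without and 2.48 with butyrate in WT and 8.68 without and 25.8 with butyrate in LNCKO (0.10 in WT and 1.47 in LNCKO), Hba-a1 at 2.97, 3.15, 10.2 and 28.6 (0.06 and 1.40), Hbb-bt at 0.686, 0.986, 3.73 and 10.2 (0.24 and 1.24) and Hbb-b1, outside the class by its WT change, at 1.997, 2.63, 9.36 and 23.1 (0.28 and 1.21). In all 4 genes LNCKO control was above both WT libraries and LNCKO butyrate was higher still. Hba-a1 and Hba-a2 are near copies, with 99.8% identity over 538 aligned transcript bases, and together they had 263, 297, 894 and 3156 fragments. The single genes cannot be kept apart with confidence. Of the 10 other erythroid genes in the list only Blvrb passed the filter (-0.09 in the difference), and among the erythroid markers Slc4a1 and Klf1 were at 0 in at least 1 library. The summed erythroid markers differed by 0.14 in WT and 1.47 in LNCKO, and whether red cell precursors differed between the cultures was not tested.

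Arg1 (ENSMUSG00000019987, chr10:24915221-24927484 of GRCm38), arginase 1, a marker of alternative activation, was at 3.33 without and 2.74 with butyrate in WT and 7.05 without and 11.6 with butyrate in LNCKO (-0.21 in WT and 0.65 in LNCKO), so that it was higher in both LNCKO libraries than in either WT library. The other alternative activation genes were not on this side by 0.5. Irf4, a transcription factor of that program, had a difference of -0.37, Mgl2, a lectin, of -0.24 and Mrc1, the mannose receptor, of 0.09. Folr2, also in the list, had 0.68, the other way from Arg1. Over the 11 passing genes the median difference was -0.05. It was above 0 for 4 and below 0 for 7, against 58.6% of all genes used below 0. Tmem140 was at 1.64, 1.59, 1.48 and 3.29 (-0.03 and 0.79), and Cyp1b1, a cytochrome P450, at 2.27, 2.71, 0.690 and 1.76 (0.18 and 0.71). Bgn, the matrix proteoglycan biglycan, was at 3.28, 2.78, 1.1 and 2.10 (-0.18 and 0.54), with LNCKO control the low library. Ifnb1, interferon beta, was at 3.59, 4.53, 3.998 and 6.61, past 0.5 in LNCKO (0.61) and at 0.27 in WT. On the downward side, Prg2, the eosinophil major basic protein, was at 21.5, 25.7, 21.5 and 14.7 (0.25 and -0.52), and Gzmb, granzyme B of cytotoxic cells, at 0.901, 0.647, 2.99 and 1.16 (-0.21 and -0.88) from 174, 131, 546 and 261 fragments. Ccnq, a cyclin, was at 7.40, 8.005, 7.85 and 4.84 (0.10 and -0.60).

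The p200 family, interferon-inducible sensors of DNA, shifted as a group by less than 0.5. All 10 passing members had a difference below 0, against 58.6% of all genes used, from -0.30 for Ifi209 to -0.09 for Ifi207. All 10 were above 0 in LNCKO, against 42.2% of all genes used, and 3 in WT, near the 36.9% of all genes. The members are similar in sequence and lie in 1 cluster, so reads may be split among them. Subunits of respiratory complex I had medians of -0.08 in WT and 0.03 in LNCKO. Their difference was below 0 for 24 of 34, against 58.6% of all genes used. Its median was -0.12, against -0.03 over all genes used. Fatty acid oxidation genes had a difference below 0 for 11 of 11, from -0.18 upward. No gene of these 3 lists was past 0.5 in the difference. NF-kB subunits and inhibitors had a median difference of -0.13, with Nfkbia, the inhibitor of NF-kB alpha, at 32.5, 29.1, 31.8 and 35.3 (-0.15 and 0.15).

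Only 9 genes were past 0.5 the same way in both genotypes, 5 upward (0.0734% of genes used) and 4 downward (0.0587%). Spp1, the secreted phosphoprotein osteopontin, was at 146 without and 255 with butyrate in WT and 146 without and 234 with butyrate in LNCKO (0.80 in WT and 0.68 in LNCKO). Ccl8, a monocyte chemoattractant, was at 14.6, 27.7, 15.6 and 37.9 (0.88 and 1.23), and Ppbp, the platelet basic protein, a CXC chemokine, at 3.73, 9.36, 4.46 and 8.25 (1.132 and 0.76). Ccn2, connective tissue growth factor, was at 2.83, 4.48, 0.676 and 1.86 (0.51 and 0.77), and Ccdc189 at 0.754, 1.58, 0.778 and 1.67 (0.56 and 0.59). For each of these 5 genes both butyrate libraries were above their own controls. Downward, Ptprcap, which associates with the phosphatase CD45, was at 9.95, 2.30, 7.72 and 2.67 (-1.73 and -1.25). Snx22, a sorting nexin, was at 4.11, 2.38, 5.93 and 2.38 (-0.60 and -1.03), Cklf, a chemokine-like factor, at 2.35, 1.16, 2.55 and 1.43 (-0.64 and -0.55), and the gene ENSMUSG00000030680 at 3.95, 0.947, 5.22 and 1.83 (-1.35 and -1.14). For these 4 genes both butyrate libraries were below their own controls.

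Families with a shared response stood beside these genes. CXC chemokines had medians of 0.56 in WT and 0.42 in LNCKO over 6 passing genes, 4 of which were at least 0.25 higher in WT and 5 in LNCKO, beside 4.93% and 1.75% of all genes. The median difference of 0.14 turned negative on 2 other scales, where more members pass. Cxcl2, a neutrophil attractant, was at 23.9, 37.3, 30.8 and 43.5 (0.62 and 0.48), and Pf4, platelet factor 4, at 86.9, 123, 117 and 150.4 (0.50 and 0.36). Cxcl10, an interferon-induced ligand of Cxcr3, was at 50.9, 52.5, 36.2 and 51.0 (0.04 and 0.48). Type I interferon-stimulated genes had medians of 0.15 and 0.16, with 21 of 25 above 0 in WT and 24 in LNCKO, beside 36.9% and 42.2% of all genes. Bst2, the antiviral protein tetherin, was at 181, 184, 168 and 203 (0.02 and 0.27) and Isg20, an RNA exonuclease, at 14.7, 15.5, 13.1 and 16.8 (0.08 and 0.33).

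Lipid genes held members that moved alike and members that did not. Apoe, apolipoprotein E, was at 2146, 2772, 1907 and 2408 (0.37 in WT and 0.34 in LNCKO), Fabp5, a fatty acid-binding protein, at 88.6, 112, 89.9 and 121 (0.34 and 0.43) and Fabp4 at 4.42, 6.08, 4.50 and 7.02 (0.39 and 0.54). Lpl, lipoprotein lipase, was lower with butyrate in both, at 13.1, 7.71, 19.9 and 14.4 (-0.70 and -0.44), as was Cd14, a co-receptor for lipopolysaccharide, at 88.6, 60.0, 95.6 and 76.3 (-0.56 and -0.32). Apoc1, another apolipoprotein, was at 0.993, 2.72, 0.666 and 1.01 (0.90 and 0.27), a difference of 0.63, and Mylip, which promotes degradation of the LDL receptor, had -0.28 and 0.05. The medians of the 12 passing genes of lipid efflux and storage were 0.23 and 0.11. Sterol and fatty acid synthesis genes had medians of -0.12 and -0.14. In LNCKO 21 of 21 were below 0 and in WT 18, whereas 42.2% and 36.9% of all genes used were above 0. The exceptions in WT were Fasn, the fatty acid synthase (0.17 and -0.21), Scd2 (0.02 and -0.28) and Sc5d (0.11 and -0.13). Gpnmb, a glycoprotein of lipid-laden macrophages, was at 48.5, 70.4, 43.6 and 57.96 (0.53 and 0.40), and Ctsk, cathepsin K, at 1.12, 1.89, 1.03 and 2.15 (0.45 and 0.63).

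Opposite directions of at least 0.25 were seen for 22 genes, 6 higher in WT and lower in LNCKO (0.0881% of genes used) and 16 the reverse (0.235%). They included both lysozyme genes, whose proteins cleave bacterial cell walls. Lyz2 (ENSMUSG00000069516, chr10:117277331-117282321 of GRCm38) was at 1972 without and 2871 with butyrate in WT and 1609 without and 869.9 with butyrate in LNCKO (0.54 in WT and -0.89 in LNCKO). Lyz1 (ENSMUSG00000069515, chr10:117287797-117292868 of GRCm38) was at 19.4, 56.7, 16.2 and 9.51 (1.498 and -0.71). Both had their highest value in WT butyrate and their lowest in LNCKO butyrate, with the controls in between. The longest transcripts of the pair were identical at 96.0% of 1262 aligned bases, and 2.06% of the 100-base words of Lyz1 transcripts occurred in another gene. Summed over both genes, fragments were 560584, 865226, 433037 and 287620, a change of 0.56 in WT and -0.89 in LNCKO per 1000000 fragments. Lyz2 gave 555029, 848207, 428661 and 284461 of these fragments, so the sum follows Lyz2, and whether Lyz2 reads were counted to Lyz1 was not tested. Mpo, the myeloperoxidase of neutrophil granules, was at 92.3, 115, 106 and 84.6 (0.31 and -0.32). Ppp1r14b, a phosphatase inhibitor, was at 4.03, 5.54, 6.37 and 4.45 (0.38 and -0.44).

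Collagen genes of fibroblasts moved the other way. Col1a1 was at 5.14, 4.04, 1.20 and 2.31 (-0.28 in WT and 0.59 in LNCKO) and Col1a2 at 2.49, 1.91, 0.548 and 1.23 (-0.26 and 0.53), the chains of type I collagen. Both were highest in WT control and lowest in LNCKO control, so the butyrate libraries were closer to each other than the controls were. Only 3 of 14 stromal genes passed the filter, with medians of -0.26 and 0.54, and the 7 stromal markers as a sum differed by -0.21 and 0.83. Whether stromal cells differed between the cultures was not tested. Gdf15, a stress-induced cytokine, was at 2.23, 1.32, 2.53 and 3.95 (-0.48 and 0.49), and Klk1, a kallikrein, at 2.12, 1.21, 1.39 and 2.14 (-0.50 and 0.39). Enpp4, an ectonucleotidase, was at 4.51, 3.13, 3.61 and 4.52 (-0.42 and 0.26).

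A share of the largest differences lay in genes that overlap or resemble another gene. Of the 139 genes with a difference past 0.5 in either direction, 30 (21.6%) had at least 25% of the 100-base words of their transcripts in common with another gene, against 299 of 6801 genes used with such words (4.40%). Exons of 20 of the 139 genes overlapped those of another gene on the same strand over at least 25% of their length. For 16 of these the partner was also listed, and once the fragments of the partners were added, 15 of the 16 had a difference under 0.5 per 1000000 fragments. The exception was Ctla2b, a cysteine protease inhibitor, with -0.93 after adding Gm49391. Both genes of some pairs, such as Raver1 and Gm38431 or Evi2 and Evi2b, are among the 16. The sum of such a pair is counted once for each gene, so the 16 are not separate loci.

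Raver1, a regulator of RNA splicing, and Gm38431 gave the largest such exchange. Raver1 had 5063, 5481, 4784 and 33 fragments and Gm38431 had 2182, 1812, 2154 and 7980, while their sums were 7245, 7293, 6938 and 8013. The difference of 2.59 for Raver1 and of -1.37 for Gm38431 became 0.03 for the sum. Evi2b, a transmembrane protein of leukocytes, had 989, 5815, 1047 and 1028 fragments and Evi2 had 18966, 11441, 17340 and 19581, and their difference was -0.15 as a sum. The split of the fragments between the genes of a pair thus differed from library to library. Lrch4 and Gm20605 (-0.08 as a sum), Tomm6, a subunit of the mitochondrial outer membrane translocase, and Gm21981 (-0.22), Brms1, a chromatin regulator, and AC124502.3 (-0.06), Fam89b and Sssca1 (-0.09), and Hsd3b7, an enzyme of bile acid synthesis, and Gm49388 (-0.01) did likewise. Rbm42, an RNA-binding protein with 3195, 1660, 1842 and 4037 fragments, overlaps Gm21982, and the histone genes H3c14 (179, 81, 11 and 214 fragments) and H2ac18 (0, 266, 35 and 0 fragments) overlap Gm20634. Neither partner is among the genes listed, so no sum was formed. Without the genes that share at least 25% of their words, the class of opposite directions held 13 genes in place of 22, the LNCKO classes 8 in place of 14 and the WT classes 70 in place of 79.

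**Figure D5:**
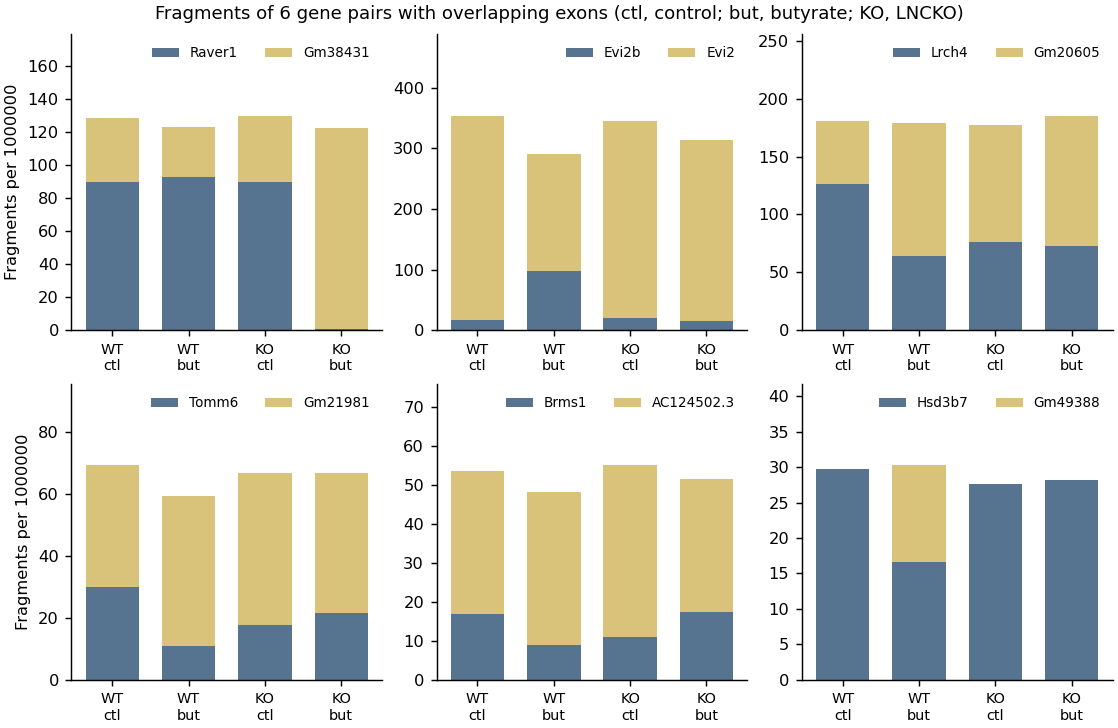
Stacked bars give the fragments per 1000000 of 6 pairs of genes with overlapping exons on the same strand, in each of the 4 libraries, with the gene past 0.5 below and its partner above. The height of the stack varies little where the split between the genes changes, as for Raver1 and Gm38431 in LNCKO butyrate.

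Cytokines and their antagonists differed in direction within WT. Il1b, interleukin 1 beta, was at 12.4, 16.1, 15.5 and 16.9 (0.35 in WT and 0.12 in LNCKO), and Tnf, tumor necrosis factor, at 5.596, 4.19, 5.07 and 4.42 (-0.35 and -0.16). Il10, an anti-inflammatory cytokine, was at 1.127, 1.53, 1.64 and 1.37 (0.25 and -0.15), whereas Il1rn, the antagonist of the interleukin 1 receptor, was at 3.91, 3.95, 3.36 and 4.35 (0.01 and 0.30) and Ptgs2, the inducible cyclooxygenase, at 1.84, 2.01, 3.11 and 4.52 (0.08 and 0.42). Of the 10 passing genes, 8 had a difference below 0, against 58.6% of all genes used. In each genotype 7 were above 0, against 36.9% of all genes in WT and 42.2% in LNCKO. Interferon-inducible GTPases had medians of 0.08 and 0.08 with 7 above 0 and 7 below 0 in the difference, and inflammasome genes had -0.04 and 0.05.

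Large housekeeping families hardly moved in either genotype. Medians were -0.04 in WT and -0.01 in LNCKO over 81 cytosolic ribosomal proteins, -0.02 and -0.01 over 36 proteasome subunits, and 0.05 and -0.02 over 15 glycolysis genes. Histone deacetylases, the targets of butyrate, had -0.04 and 0.01 over 5 passing genes, and subunits of H3K4 methyltransferase complexes had 0.02 and -0.04 over 10. Toll-like receptors and adaptors had -0.08 and 0.00, with no member at 0.25 in either genotype. Of the butyrate receptors, Hcar2 was at 18.8, 19.5, 21.7 and 27.1 (0.05 and 0.31) and Ffar2 at 2.13, 2.98, 1.95 and 2.27 (0.35 and 0.15).

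Apart from Runx3, no passing gene of the RUNX3, Nr4a1, Zfp36 and MAPK list, whose members the study names, had a difference past 0.5. Jund, an AP-1 subunit, was at 75.3, 60.0, 77.7 and 80.5 (-0.32 in WT and 0.05 in LNCKO), and Zfp36, which destabilizes cytokine mRNAs, at 156, 130.3, 170.3 and 164 (-0.26 and -0.06). Nr4a1, a nuclear receptor, was at 0.840, 0.511, 1.62 and 1.23 (-0.28 and -0.23), and Hspa1a, a heat shock protein, at 1.43, 0.871, 1.66 and 1.35 (-0.38 and -0.18). The kinase gene Mapk3 had a difference of 0.00, Atf4 of 0.08, Daxx of -0.15 and Flna of -0.09. The H3K4 subunits Wdr5, Rbbp5, Ash2l and Kmt2a had 0.11, 0.04, -0.07 and 0.02.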

How the data were processed

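RNA-seq libraries of bone marrow-derived macrophages were analyzed, 1 each for WT and LNCKO cells with and without butyrate. The authors deposited FPKM values per gene, and the submitters' processing notes name STAR 2.5.0c, Picard 1.126, bedtools 2.17.0 and HTSeq 0.6.0. The deposited FPKM were fragments per kilobase of the whole gene span, since multiplying by the GENCODE M21 span (GRCm38) gave whole fragments, within 0.01, for 98.5 to 98.6% of values. Library totals were recovered from this step. Log2 ratios of FPKM + 1, which understate the change of low genes, were formed for genes whose FPKM averaged 1 or more. Python 3.11.15, numpy 2.4.6, pandas 2.3.3 and scipy 1.17.1 were used, and the recovery of totals and the classes were tested on simulated data. With 1 library per group no error between cultures can be given, and counting intervals of 95% assume independent fragments.

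Genes were named as the 10 highest and 10 lowest differences at an average FPKM of 5 or more, the 6 leading genes of each class and direction (for the class moving the same way in both genotypes by the smaller of the changes), the members of the 67 gene lists, the genes of the study's regulatory axis and genes that overlap or copy a named gene. Other genes of the classes were named after their values were seen. The members and lists were chosen with earlier results of these data known. Alternatives were another pseudocount, other filters, other scalings, another threshold and, chosen after seeing the data, the exclusion of genes that share sequence and fragments of the genes past the FPKM filter. Promoter sequences are from RefSeq. Some items are not reported here.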

Additional observations from a re-analysis of the deposited data

Results flagged for a closer look

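The direction of the butyrate change was opposite in WT and LNCKO, by at least 0.25 in each, for 22 genes, and the difference between the genotypes was not tested because each group is 1 library. In WT minus LNCKO on the log2(FPKM + 1) scale, the genes that were higher with butyrate in WT and lower in LNCKO had differences of 4.20 for H2ac18, 2.21 for Lyz1, 1.43 for Lyz2, 0.82 for Ppp1r14b, 0.67 for H3c3 and 0.63 for Mpo. The genes with the reverse order had -1.97 for H3c14, -1.58 for Tomm6, -1.51 for Rbm42, -0.97 for Gdf15, -0.95 for Brms1, -0.89 for Klk1, -0.87 for Col1a1, -0.84 for Fam89b, -0.79 for Col1a2 and -0.69 for ENSMUSG00000116048. Smaller differences of this sign were -0.68 for Enpp4, -0.66 for Nr2c2ap, -0.66 for Igip, -0.64 for Tsr3, -0.62 for Gh and -0.61 for H4c17. Of these genes, H2ac18, H3c14, Tomm6, Rbm42, Brms1, Fam89b and ENSMUSG00000116048 have exons that overlap another gene on the same strand, and the histone genes are members of a family of near copies. H2ac18 had 0, 266, 35 and 0 fragments, so its difference rests on libraries with few fragments or none.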

How the results depend on the processing

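Counts are given in 1 order, the genes past 0.5 in WT alone, in LNCKO alone, in the same direction in both and in opposite directions, then those with a difference of at least 0.5 and of at most -0.5. As reported they were 79, 14, 9, 22, 79 and 60. With a pseudocount of 0.1 they were 160, 25, 20, 54, 151 and 165. Without a filter they were 106, 27, 14, 35, 111 and 93, and at a mean FPKM of at least 5 they were 39, 6, 4, 6, 31 and 23. Scaling by median ratios left every count within 1.5 times, at 89, 15, 10, 19, 91 and 54. Rescaled to 1000000 per library, where 11021 genes pass, they were 460, 104, 79, 277, 476 and 524, and as fragments per 1000000, where 11738 pass, 573, 113, 65, 319, 598 and 596. At a threshold of 1 with the near-level limit doubled they were 18, 6, 2, 5, 15 and 8. In the alternatives chosen after seeing the data they were 70, 8, 8, 13, 69 and 40 without genes that share sequence and 163, 21, 17, 49, 144 and 156 as fragments per 1000000 among genes past the FPKM filter. The classes therefore depend on where the threshold and the filter lie, and the counts are those of the settings named.

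Among the 1006 genes recomputed, none of those with a difference of at least 0.25 in size changed its sign under the other scalings. The median difference over passing genes was -0.03 as reported and 0.0009, -0.06 and -0.03 on those scales. Such shifts are small beside 0.25, so a kept sign says little. Medians of several lists did, most of them close to 0. For interferon-inducible GTPases the sign changed on all 3 other scales, from -0.02 to 0.02, 0.0025 and 0.04. The median over CXC chemokines changed on 2, from 0.14 to -0.22 and -0.24. The difference moved by more than 0.2 for 76 genes with a pseudocount of 0.1, 76 with FPKM rescaled and 61 as fragments. Leaving out a library was not possible because each group is 1 library. No paired analysis was possible because each group has 1 library. Sex differs with genotype by Ddx3y, and the groups have no replicates, so genotype, sex and culture cannot be told apart.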

Other observations

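The filter on FPKM leaves out long genes with many fragments, because FPKM was taken over the gene span. Of the genes under a mean FPKM of 1, 2829 had at least 500 fragments on average, and per 1000000 fragments 101 of them had a difference of at least 0.5 and 162 of at most -0.5. The following genes were chosen after their values were seen. Overlapping exons and shared sequence were examined only for genes past the FPKM filter, so not for these. Nos2, the inducible nitric oxide synthase, had 400, 1178, 1247 and 1377 fragments in WT without and with butyrate and LNCKO without and with butyrate, a change of 1.37 in WT and -0.15 in LNCKO, so that WT control was the low library. Gbp2b, an interferon-inducible GTPase, had 256, 2569, 413 and 403 fragments (3.003 and -0.29), with WT butyrate alone high. Gbp8 of the same family had 997, 2169, 1404 and 1622 fragments (1.01 and -0.08). Slc15a2, a peptide transporter, had 1651, 1506, 1135 and 293 fragments (-0.20 and -2.02), with LNCKO butyrate alone low.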
